A study of Homo sapiens with 6 samples.

Results

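The MHC class I pathway was followed through 9 genes, HLA-B, HLA-C, HLA-E, HLA-F, B2M, TAP1, TAP2, TAPBP and NLRC5, in RNA of the human gastric cancer line HGC-27. They were chosen by name from a count table of 58825 Ensembl genes, and all 9 were among the 19528 genes that passed a filter on low counts and were tested. The 6 libraries were 3 labelled GC0643 overexpression and 3 labelled vector control. GC0643 is a gene predicted by the study on sequence that is missing from GRCh38, and the paper's methods describe stable lines made by retroviral infection and puromycin selection. Whether a line is a clone or a pool, and whether the 3 replicates of a group were separate cultures, is not stated for these libraries, so the p-values measure only the spread between these libraries. GC0643 itself was not analysed here, and directions therefore rest on the labels.

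MHC class I molecules show fragments of a cell's own proteins to CD8+ T cells. Each molecule is a heavy chain, such as HLA-B, HLA-C, HLA-E or HLA-F, joined to the small invariant chain beta-2 microglobulin, the product of B2M. Peptides cut by the proteasome are pumped into the endoplasmic reticulum by the transporter TAP1-TAP2, and tapasin, the product of TAPBP, holds the empty heavy chain at the transporter while it is loaded. NLRC5 is the transactivator that drives transcription of class I genes, and tumor cells are known to lose parts of this pathway. HLA-B and HLA-C present to T cells, HLA-E is read mostly by receptors of natural killer cells, and HLA-F is a non-classical heavy chain that can reach the surface as an open form.

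Promoter elements of the genes are shown here because the pathway is commonly described as co-regulated. RefSeq promoters, from 250 bases before to 50 after the start of transcription in GRCh38.p14, were matched for 7 of the 9 genes. HLA-E and NLRC5 were not matched. Stretches upstream of the start are printed 5′ to 3′ on the strand of the gene, with capitals for the searched motifs. They are chr6:31357227-31357361 (minus strand) for HLA-B, chr6:31272140-31272274 (minus) for HLA-C, chr6:29723252-29723386 (plus) for HLA-F and chr15:44711365-44711477 (plus) for B2M. For the transporter and tapasin they are chr6:32853761-32853843 (minus) for TAP1, chr6:32838764-32838805 (minus) for TAP2 and chr6:33314079-33314141 (minus) for TAPBP. For TAP1, which has several starts in RefSeq, the start farthest upstream was used. In GENCODE the stretches of HLA-B, HLA-F, B2M and TAPBP lie inside the annotated gene, since some transcripts start farther upstream, and that of TAP1 lies partly inside.
HLA-B: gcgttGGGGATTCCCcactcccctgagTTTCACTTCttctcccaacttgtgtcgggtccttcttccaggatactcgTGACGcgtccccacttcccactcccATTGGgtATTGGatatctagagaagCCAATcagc
HLA-C: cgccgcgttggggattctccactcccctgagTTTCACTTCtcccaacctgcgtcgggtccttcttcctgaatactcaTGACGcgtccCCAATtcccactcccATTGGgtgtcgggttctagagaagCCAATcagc
HLA-F: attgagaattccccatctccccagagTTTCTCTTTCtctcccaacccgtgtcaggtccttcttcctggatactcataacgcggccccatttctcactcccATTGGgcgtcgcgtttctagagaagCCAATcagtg
B2M: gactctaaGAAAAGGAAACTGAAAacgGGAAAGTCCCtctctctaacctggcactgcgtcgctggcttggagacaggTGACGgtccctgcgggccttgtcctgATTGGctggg
TAP1: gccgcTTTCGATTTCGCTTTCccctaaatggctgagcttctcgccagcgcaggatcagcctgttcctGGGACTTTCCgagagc
TAP2: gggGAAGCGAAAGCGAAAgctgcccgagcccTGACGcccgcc
TAPBP: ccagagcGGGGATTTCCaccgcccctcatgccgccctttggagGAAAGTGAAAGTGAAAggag
The motifs, searched on both strands, were GAAA, NN and GAAA in a row, and GAA, NN and GAAA in a row, for the interferon-stimulated response element (N is any base), GGG, NN, TT, N and CC in a row for a kappaB site, TGACG for the core of the X2 box and ATTGG for the core of the Y box. Neighbouring matches can overlap, as the interferon element matches of B2M, TAP1, TAP2 and TAPBP do. X2 and Y belong to the module on which RFX, CREB/ATF and NF-Y factors assemble and to which NLRC5 is recruited. HLA-B, HLA-C and B2M held TGACG followed by ATTGG on the gene's strand, 25, 25 and 26 bases apart from start to start. Upstream of the start, TGACG was not found for HLA-F, TAP1 and TAPBP, and ATTGG was not found for TAP2 and TAPBP. The kappaB site was found for HLA-B, B2M, TAP1 and TAPBP alone. Each matched gene held an interferon element, which for HLA-B and HLA-C was the shorter form only. Among 35116 RefSeq promoters, 0.242% held this arrangement within 20 to 30 bases. The longer interferon element was found in 3.57% of the promoters, the shorter one in 7.66%, the kappaB site in 5.68%, TGACG in 24.6% and ATTGG in 34.6%. The letters and the spacing were chosen after these promoters had been read, and a match is a description of the sequence alone.

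All 9 genes gave counts in every library. Levels between genes were compared as CPM, counts scaled to a common library total by TMM, per kilobase of the canonical transcript. B2M stood highest, at 249 ± 12.7 CPM per kilobase with GC0643 overexpression and 191 ± 39.8 with vector control (SD, n = 3 each). HLA-B followed with 50.1 ± 13.7 and 52.0 ± 14.1 CPM per kilobase, HLA-E with 39.6 ± 4.98 and 46.5 ± 8.75, and HLA-C with 41.0 ± 10.7 and 41.5 ± 11.6 (GC0643 overexpression and vector control, SD, n = 3 each). TAPBP had 18.6 ± 1.43 and 21.5 ± 1.30 CPM per kilobase in the same groups, TAP1 17.3 ± 1.62 and 20.3 ± 3.12, TAP2 14.1 ± 1.39 and 15.2 ± 1.16, HLA-F 12.9 ± 3.27 and 11.4 ± 6.37, and NLRC5 2.81 ± 0.103 and 3.40 ± 0.210 (SD, n = 3 each). Each gene lay above the next in this order in 6 of 6 libraries, except HLA-E over HLA-C in 5, TAPBP over TAP1 in 4 and TAP2 over HLA-F in 4. The light chain B2M thus had the most transcript per length and the transactivator NLRC5 the least. These levels rest on alignment to the heavy chain alleles of the reference genome, and the alleles of HGC-27 were not used here.

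Depth was even, with totals of 20376722 to 21629573 counts for GC0643 overexpression and 20489033 to 24069166 counts for vector control. By edgeR's quasi-likelihood test, 0 of the 19528 genes passed an adjusted p of 0.05, while 2553 had higher and 1028 had lower levels at an unadjusted p below 0.05. DESeq2 passed 11 genes and the likelihood ratio test 16. The libraries differed in base composition. The median log2 level of the quartile of genes with the lowest GC content, minus that of the quartile with the highest, lay at 0.36, 0.13 and 0.33 in GC0643 overexpression replicates 1 to 3 and at −0.35, 0.12 and −0.58 in vector control replicates 1 to 3. Vector control replicate 2 thus lay beside the libraries labelled GC0643 overexpression. Of 11 markers of gastric epithelium 1 passed the filter, and EPCAM and CDH1, which encode epithelial adhesion proteins, had at most 9 counts in any library. All 6 fibroblast markers passed it, with a summed level of 4112 to 4868 CPM in GC0643 overexpression and 4075 to 4760 CPM in vector control. COL1A1 and COL3A1 made up most of this sum, with log2 fold changes of −0.08 and 0.02, and PDGFRB had −0.36 (unadjusted p = 0.082 from edgeR). COL1A2, DCN and PDGFRA were higher with GC0643 overexpression, by log2 fold changes of 0.46, 0.47 and 0.53 (unadjusted p = 0.0068, 0.0057 and 0.0089, adjusted p = 0.26 each from edgeR). At an unadjusted p under 0.05, 13.1% of all genes tested were higher. The part of the fibroblast markers in the results for the 9 was not tested. The summed lymphocyte markers stayed between 3.73 and 5.57 CPM over the 6 libraries and those of macrophages and dendritic cells between 3.06 and 4.03, and CD3D, CD3E and MS4A1 were at 0 counts.

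Among the heavy chains, no gene separated the groups. HLA-B (ENSG00000234745.11), on chromosome 6 of GRCh38 from 31353872 to 31367067, had 101, 67.6 and 62.1 CPM in GC0643 overexpression replicates 1 to 3, against 75.1, 61.0 and 103 CPM in vector control replicates 1 to 3. GC0643 overexpression replicate 1 and vector control replicate 3 were high, and the other 4 libraries lay lower, so the groups overlapped. HLA-B had a log2 fold change of −0.05 (SE 0.20, edgeR adjusted p = 0.89). A pseudogene on the opposite strand, ENSG00000271581, shares 991 bases with HLA-B and had 268 to 494 counts. Without a stated strand setting the reads of HLA-B and this pseudogene cannot be told apart. In bulk RNA, fewer cells with a transcript and less transcript per cell cannot be told apart.

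HLA-C (ENSG00000204525.16, chromosome 6, 31268749 to 31272130) had 81.3, 59.2 and 48.9 CPM in GC0643 overexpression replicates 1 to 3, against 59.7, 48.5 and 83.6 CPM in vector control replicates 1 to 3. The high libraries were those of HLA-B. Its log2 fold change was −0.02 (SE 0.20, edgeR adjusted p = 0.97). HLA-B and HLA-C are close paralogs, so reads that match both make their counts uncertain. The paper describes counting uniquely mapped reads for its tumour RNA-seq, but the rule used for these libraries is not stated. Per kilobase, HLA-B over HLA-C was 1.25, 1.15 and 1.27 with GC0643 overexpression and 1.26, 1.26 and 1.24 with vector control. This ratio moved far less between the libraries than the level of either gene, and its log2 difference of −0.04 between the groups was within their spread (two-sided exact permutation test, p = 0.7, where the smallest p that 3 against 3 libraries can give is 0.1).

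HLA-E (ENSG00000204592.9, chromosome 6, 30489509 to 30494194), the ligand of the NKG2A receptor, had 113, 102 and 88.0 CPM in GC0643 overexpression replicates 1 to 3, against 115, 98.0 and 142 CPM in vector control replicates 1 to 3. Vector control replicate 3 was again the highest, but GC0643 overexpression replicate 1 lay beside vector control replicate 1. Its log2 fold change was −0.23 (SE 0.15, edgeR adjusted p = 0.37).

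HLA-F (ENSG00000204642.14, chromosome 6, 29722775 to 29738528) varied most of the 9 genes on the log2 scale. It had 24.2, 18.5 and 14.5 CPM in GC0643 overexpression replicates 1 to 3, against 10.4, 12.5 and 27.7 CPM in vector control replicates 1 to 3. Vector control held the lowest and the highest library, and vector control replicate 3 alone set the overlap. On the log2 scale the fold change was 0.17 (SE 0.29, edgeR adjusted p = 0.74), but 0.73 without vector control replicate 3 (unadjusted p = 0.00015, adjusted p = 0.087 from edgeR). It took a negative sign when GC0643 overexpression replicate 1 (−0.036), vector control replicate 1 (−0.089) or vector control replicate 2 (−0.0039) was left out. HLA-F shares 11928 bases with HLA-F-AS1 on the opposite strand, whose own counts were 81 to 118, and without a stated strand setting the reads of the genes cannot be told apart.

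**Figure D1:**
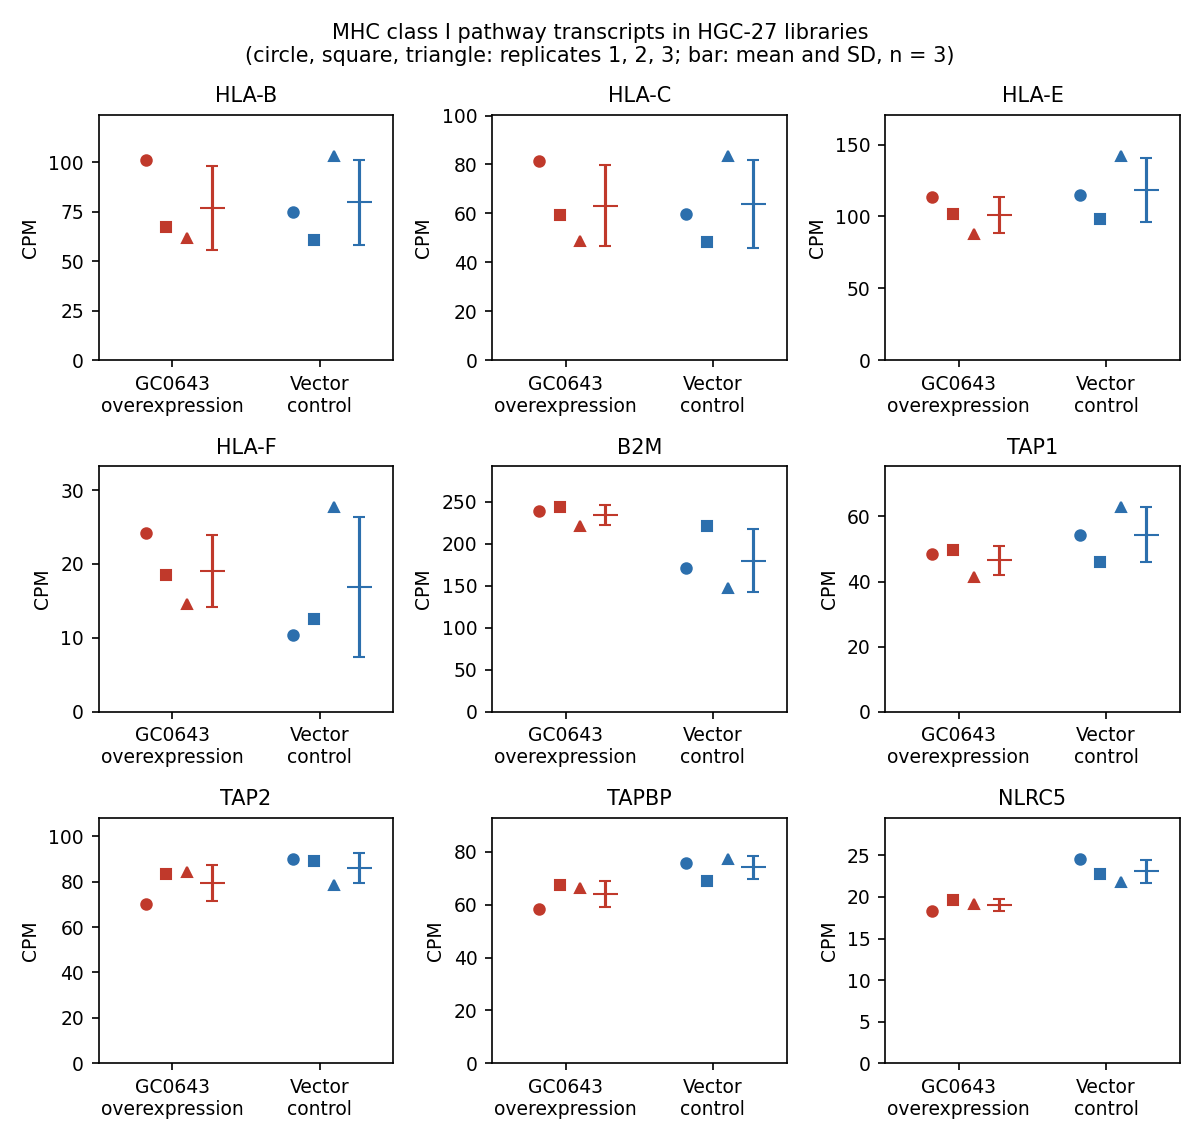
CPM on TMM-scaled totals (vertical axes, starting at 0) for the 9 transcripts, 1 panel each, with GC0643 overexpression in red and vector control in blue (horizontal axes). Circles, squares and triangles are replicates 1, 2 and 3, and the bar beside them is the mean with its SD (n = 3). HLA-B and HLA-C are high in GC0643 overexpression replicate 1 and vector control replicate 3, at 101 and 103 CPM for HLA-B.

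Summed over HLA-B, HLA-C, HLA-E and HLA-F, the heavy chains had 320.0, 247 and 214 CPM in GC0643 overexpression replicates 1 to 3, against 260.2, 220.1 and 357 CPM in vector control replicates 1 to 3. The sum averaged 260.1 ± 54.4 CPM with GC0643 overexpression and 279 ± 70.3 CPM with vector control (SD, n = 3 each). The spread within each group was larger than the difference between them. For the summed counts it came to a log2 fold change of −0.10 (SE 0.17, edgeR adjusted p = 0.74).

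The light chain did not follow the heavy chains. B2M (ENSG00000166710.19), on chromosome 15 from 44711358 to 44718851, had 239, 244 and 221.0 CPM in GC0643 overexpression replicates 1 to 3, against 171, 220.7 and 147 CPM in vector control replicates 1 to 3. The groups did not overlap, though GC0643 overexpression replicate 3 and vector control replicate 2 lay side by side. Vector control replicate 3, the highest library for each of the 4 heavy chains, was the lowest for B2M. The log2 fold change was 0.38 (SE 0.14, unadjusted p = 0.016, adjusted p = 0.26 from edgeR), so that B2M was higher at the unadjusted p and did not pass the adjusted one. Without vector control replicate 2 it was 0.56 (adjusted p = 0.011 from edgeR), in a fit where 3813 of 19988 genes passed the adjusted p. With GC0643 overexpression replicate 2 left out it was 0.34 (unadjusted p = 0.061), with vector control replicate 1 left out 0.34 (unadjusted p = 0.069) and with vector control replicate 3 left out 0.25 (unadjusted p = 0.055).

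The B2M transcript has a GC content of 39.1%, below the other 8 genes, which lie between 48.9% for TAP2 and 60.1% for HLA-C. The base composition of the libraries moved with the groups as given above, and log2 fold changes over all genes had a median of 0.33 in the quartile of lowest GC content and −0.21 in the quartile of highest. After a loess correction for GC content within each library, the log2 fold change of B2M was 0.10 (SE 0.10, unadjusted p = 0.35 from edgeR), and of all genes 2.87% were then above and 3.24% below 0 with an unadjusted p under 0.05. Relative to the mean of the 6 libraries, B2M lay at 0.23, 0.26 and 0.12 (log2) in GC0643 overexpression and at −0.25, 0.12 and −0.47 in vector control. Among the vector control libraries B2M took the same order as the base composition, with replicate 2 highest and replicate 3 lowest, but not among those of GC0643 overexpression. Base composition differed between the groups, so the correction can also take away a group difference that follows GC content. The part of base composition in the B2M values was not tested.

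**Figure D2:**
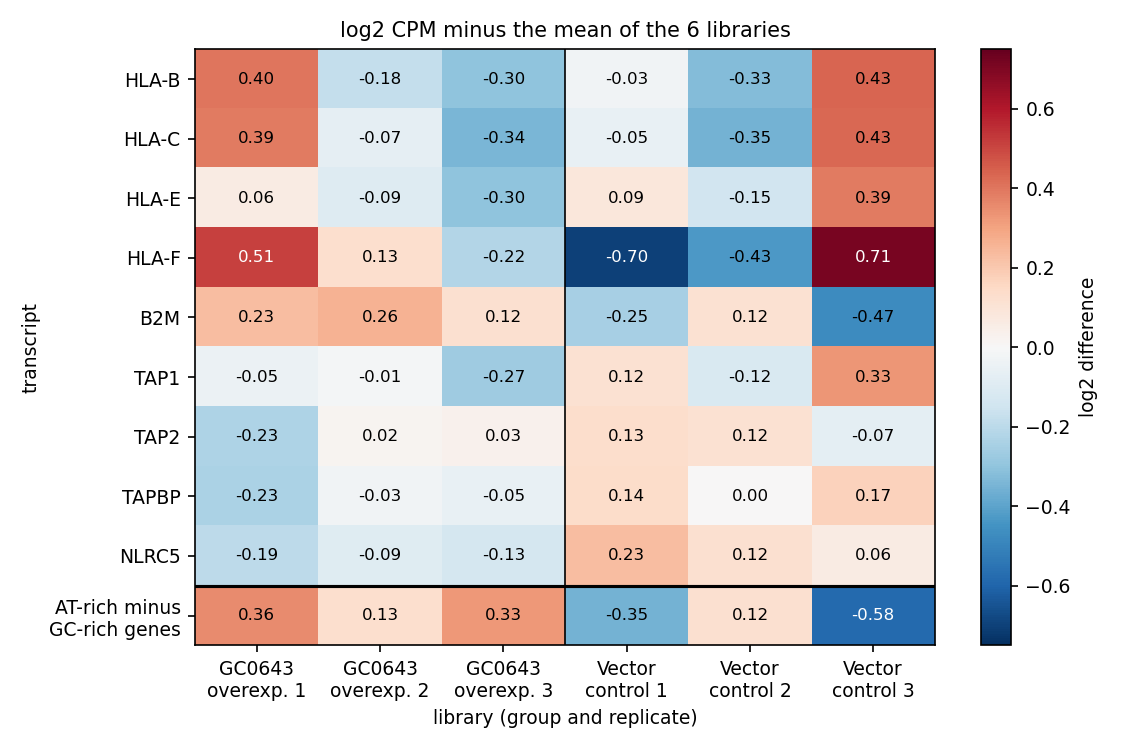
Log2 CPM minus the mean of the 6 libraries (colour and printed value) for the 9 transcripts (rows) in each library (columns), with GC0643 overexpression left of the vertical line. The last row gives the median of the quartile of genes with the lowest GC content minus that of the highest quartile. B2M at −0.47 and HLA-F at 0.71 in vector control replicate 3 stand at opposite ends of the same library.

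Per kilobase, B2M over the summed heavy chains was 1.41, 1.92 and 2.01 in GC0643 overexpression replicates 1 to 3, against 1.30, 1.98 and 0.796 in vector control replicates 1 to 3. In vector control replicate 3 alone the summed heavy chains lay above the light chain. The ratio averaged 1.78 ± 0.323 with GC0643 overexpression and 1.36 ± 0.595 with vector control (SD, n = 3 each). The log2 difference of 0.47 was within the spread of the libraries (two-sided exact permutation test, p = 0.3, with a smallest possible p of 0.1), and it was 0.0052 after the GC correction.

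The transporter and its partner differed less between libraries than the heavy chains. TAP1 (ENSG00000168394.11, chromosome 6, 32845209 to 32853816), which binds and hydrolyses ATP together with TAP2, had 48.5, 49.6 and 41.5 CPM in GC0643 overexpression replicates 1 to 3, against 54.2, 46.1 and 62.9 CPM in vector control replicates 1 to 3. The groups overlapped, and vector control replicate 3 was the highest. Its log2 fold change was −0.23 (SE 0.14, edgeR adjusted p = 0.36). TAP1 shares its locus with PSMB9, an immunoproteasome subunit on the opposite strand, over 8608 bases of the annotated genes. PSMB8-AS1, also on the opposite strand, shares 1292 bases with TAP1 and had 277 to 427 counts. The strand setting of these libraries is not stated. PSMB9 had 11.9, 11.1 and 9.86 CPM in GC0643 overexpression and 11.3, 12.4 and 14.9 CPM in vector control, a log2 fold change of −0.23 (SE 0.16, edgeR adjusted p = 0.41).

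TAP2 (ENSG00000204267.14, chromosome 6, 32821833 to 32838739) had 70.3, 83.4 and 84.3 CPM in GC0643 overexpression replicates 1 to 3, against 90.2, 89.3 and 78.4 CPM in vector control replicates 1 to 3. Here GC0643 overexpression replicate 1 was the lowest library and vector control replicate 3 the second lowest, the reverse of the heavy chains. TAP2 had a log2 fold change of −0.12 (SE 0.13, edgeR adjusted p = 0.59). A further annotated gene, ENSG00000250264, covers the whole of TAP2 on the same strand and had 1108 to 1442 counts of its own, and whether reads in both were counted for each of them, as the paper describes for its tumour RNA-seq, is not stated for these libraries. PSMB8, the immunoproteasome subunit encoded beside TAP2, had a log2 fold change of −0.22 (adjusted p = 0.40 from edgeR). TAP1 over TAP2 per kilobase was 1.45, 1.25 and 1.03 with GC0643 overexpression and 1.26, 1.09 and 1.68 with vector control (log2 difference −0.10, two-sided exact permutation test, p = 0.6). That difference turned positive after the GC correction (0.10), and also when GC0643 overexpression replicate 3 (0.026) or vector control replicate 3 (0.074) was left out.

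TAPBP (ENSG00000231925.11, chromosome 6, 33299694 to 33314284) had 58.5, 67.6 and 66.4 CPM in GC0643 overexpression replicates 1 to 3, against 75.8, 69.0 and 77.5 CPM in vector control replicates 1 to 3. Every library labelled GC0643 overexpression lay below every vector control library, the nearest pair being 67.6 and 69.0 CPM. The log2 fold change was −0.21 (SE 0.12, unadjusted p = 0.11, adjusted p = 0.34 from edgeR), and −0.06 after the GC correction.

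NLRC5 (ENSG00000140853.15), on chromosome 16 from 56989485 to 57083531, had 18.3, 19.7 and 19.1 CPM in GC0643 overexpression replicates 1 to 3, against 24.6, 22.8 and 21.8 CPM in vector control replicates 1 to 3. The groups did not overlap, and the libraries within a group lay close together. The log2 fold change of −0.28 (SE 0.14, unadjusted p = 0.061, adjusted p = 0.28 from edgeR) did not pass either threshold. It was −0.12 (unadjusted p = 0.31 from edgeR) after the GC correction and −0.43 (unadjusted p = 0.0076) after a correction for transcript length. Without vector control replicate 2 or vector control replicate 3 the unadjusted p of NLRC5 was 0.047 and 0.038.

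Of the 9 genes, 1 was higher at an unadjusted p under 0.05, B2M, against 13.1% of all genes tested. None was lower, against 5.26% of all genes. None passed a fold change of 1.5 with an unadjusted p under 0.05, against 2.47% of all genes, and none passed the adjusted p, against 0% of all genes, with adjusted p from 0.26 to 0.97. DESeq2 called B2M higher and NLRC5 lower at the unadjusted p, against 10.7% higher and 7.19% lower of all genes in that fit. By DESeq2, 0 of the 9 passed the adjusted p. The groups did not overlap for 1 gene with GC0643 overexpression above, against 11.8% of all genes, and for 2 with it below, against 10.5%. The median log2 fold change of the 9 genes was −0.12, beside 0.02 over all genes tested, and their counts were near the background. Without vector control replicate 2, HLA-E, TAP1, TAPBP and NLRC5 were lower at an unadjusted p under 0.05, with log2 fold changes of −0.35, −0.33, −0.26 and −0.28, against 14.2% of all genes. When the GC correction was added, which was decided with the values in view, none of the 9 passed that p in either direction.

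**Figure D3:**
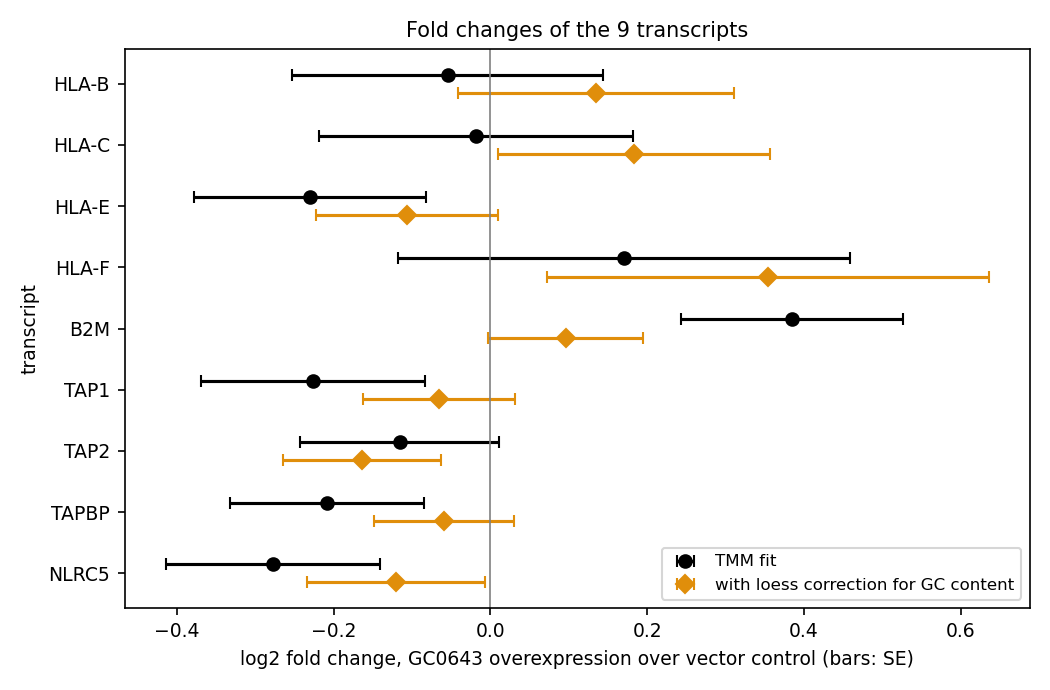
Log2 fold change of GC0643 overexpression over vector control (horizontal axis) with its SE (bars) for the 9 transcripts (vertical axis), from the TMM fit (black circles) and from the fit with a loess correction for GC content (orange diamonds). B2M lies at 0.38 in the TMM fit and at 0.10 with the correction, and HLA-B and HLA-C change sign, to 0.13 and 0.18.

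Genes around the pathway were read in 13 lists of 94 genes in all, of which 71 were tested. At an unadjusted p under 0.05, 14 of the 71 (19.7%) were higher and none was lower, beside the 13.1% and 5.26% of all genes. Log2 fold changes were positive for 34 and negative for 37 of the 71, beside 10136 and 9392 of all 19528 genes tested. Over the genes tested with a known GC content, log2 fold change and GC content had a Spearman correlation of −0.67. The part of GC content in the direction of each list was not tested. The 14 had GC contents from 35.2% to 46.4%, and 2 of them, JAK1 and IFI44, kept an unadjusted p under 0.05 after the GC correction. Their log2 fold changes ranged from 0.35 to 0.93 before the correction and from 0.07 to 0.63 after it.

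Of 8 genes whose products fold heavy chains or load and trim peptides, 6 had a positive log2 fold change and 2 passed the unadjusted p, with a median of 0.33. CANX encodes calnexin, a chaperone of new heavy chains. It had 879, 765 and 907 CPM in GC0643 overexpression and 638, 843 and 523 CPM in vector control, with overlapping groups and a log2 fold change of 0.35 (SE 0.15, edgeR adjusted p = 0.26). LNPEP, an aminopeptidase that trims peptides in endosomes, had a log2 fold change of 0.43 (adjusted p = 0.26 from edgeR). After the GC correction these values were 0.07 and 0.09.

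The 5 immunoproteasome and PA28 genes, which shape and speed the cutting of peptides, all had negative log2 fold changes with a median of −0.22. None passed the unadjusted p. PSMB10 had −0.24 (adjusted p = 0.37 from edgeR), and after the GC correction it was at −0.045 and PSMB8 at −0.10. The 3 catalytic subunits of the constitutive proteasome that they replace were negative too, with a median of −0.13 and with PSMB5 at −0.15 and PSMB7 at −0.13.

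In interferon gamma signaling, which induces class I genes, 6 of 9 genes had a positive log2 fold change and 3 passed the unadjusted p. IFNGR1, a chain of the receptor, had a log2 fold change of 0.55 with groups that did not overlap, and JAK1, the kinase bound to it, had 0.38 (adjusted p = 0.26 each from edgeR). After the GC correction IFNGR1 was at 0.24 (unadjusted p = 0.083 from edgeR) and JAK1 at 0.24 (unadjusted p = 0.033). Of 16 interferon-stimulated genes 10 were tested and 3 passed the unadjusted p. The direction was mixed, positive for 6 of the 10 and negative for 4, and the median of the list was 0.09. ISG15 and IFI27, named after their values were seen, were at −0.32 and −0.38 (unadjusted p = 0.057 and 0.20 from edgeR). The groups did not overlap for ISG15 and overlapped for IFI27. IFI44 had 1.77, 1.89 and 1.82 CPM in GC0643 overexpression, against 0.887, 1.16 and 0.832 CPM in vector control, a log2 fold change of 0.93 (SE 0.30, edgeR adjusted p = 0.26). IFIT1, which binds foreign RNA, had 0.69. The 6 genes of this list that were not tested stayed under 1 CPM in every library, among them CXCL10 at 0 counts in all 6. IFITM1, named after its values were seen, had the highest level of the tested ones, at 46.2 to 51.7 CPM in GC0643 overexpression and 44.9 to 54.0 CPM in vector control.

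All 6 genes of the NF-kappaB list had negative log2 fold changes and none passed the unadjusted p, with a median of −0.19. RELA had −0.26 and its inhibitor NFKBIA −0.24. After the GC correction they were at −0.085 and −0.16, and REL, named after its values were seen, was then lower (−0.47, unadjusted p = 0.017 from edgeR), against −0.13 without the correction. The factors that assemble on the X and Y boxes were mixed. Of 8 genes, 6 were positive and 3 passed the unadjusted p, with CREB1 at 0.50 and NFYB, a subunit of NF-Y, at 0.46 (adjusted p = 0.26 each from edgeR). After the GC correction they were at 0.15 and 0.13.

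Of 8 MHC class II genes 4 were tested, and HLA-DRA, HLA-DPA1 and HLA-DPB1 had 0 counts in every library, although CIITA, the transactivator of class II and a relative of NLRC5, had 25.4 to 31.0 CPM in GC0643 overexpression and 29.6 to 30.9 CPM in vector control. HLA-DMA and HLA-DMB, which edit class II peptides, had log2 fold changes of 0.25 and −0.81, the second at under 1 CPM, and neither passed the unadjusted p. Of 9 other class I-like heavy chains, 2 were tested. MR1, which presents vitamin metabolites, had a log2 fold change of 0.35 (adjusted p = 0.27 from edgeR), and FCGRT, the heavy chain of the neonatal Fc receptor, −0.15 (adjusted p = 0.79). Of 6 class I pseudogenes 4 were tested and none passed the unadjusted p. HLA-H had 0.13 and HLA-L −0.16.

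Among 8 ligands of NKG2D, the activating receptor of natural killer cells, 5 were tested and 1 passed the unadjusted p. ULBP3 had a log2 fold change of 0.55 and MICB −0.17 (adjusted p = 0.27 and 0.49 from edgeR). The 4 tested genes of class I turnover, which mark heavy chains for degradation, were all negative, with WWP2 at −0.22 and TMEM127 at −0.19, and none passed the unadjusted p. The 3 genes of PRC2, the complex that writes a repressive histone mark and can silence class I genes in tumor cells, were all positive. SUZ12 had 0.49 and EZH2 0.30 (adjusted p = 0.26 and 0.28 from edgeR), and 1 of the 3 passed the unadjusted p. SUZ12 was at 0.19 after the GC correction.

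**Figure D4:**
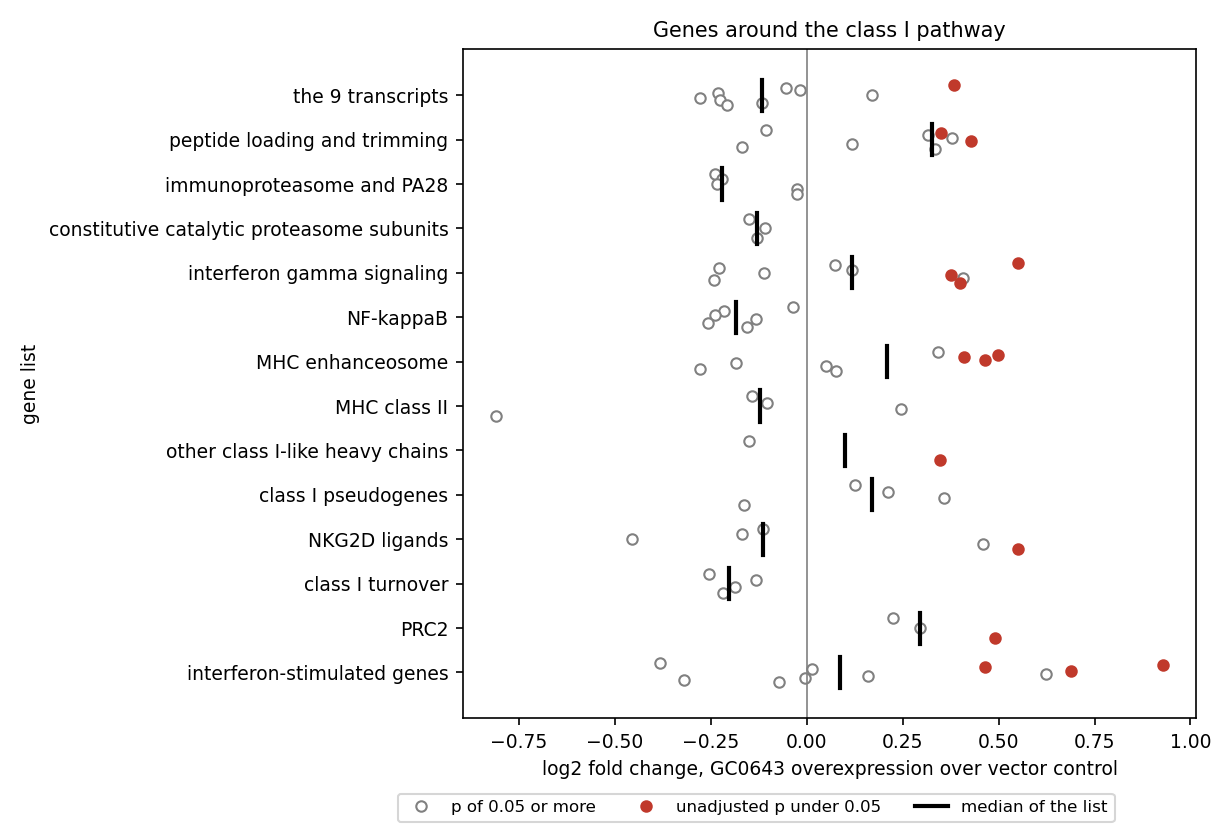
Log2 fold change of GC0643 overexpression over vector control (horizontal axis) for each tested gene of the 9 transcripts and of 13 surrounding lists (vertical axis). Red points have an unadjusted p under 0.05 from edgeR, open points do not, and the black bar is the median of the list. All red points lie right of 0, and the medians run from −0.22 to 0.33.

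The genes whose profile was most like the mean of the 9, by Pearson correlation of log2 CPM over the 6 libraries, were GFPT2, IFT27, SYNPO, CYB561D1 and OTUB2, with r from 0.992 to 0.997. The 6 points share depth and base composition within a library, and the values are a description. The 9 genes did not share a profile, with r of 0.99 between HLA-B and HLA-C. It was −0.86 between HLA-F and TAP2 and −0.85 between B2M and TAPBP. The mean of the 9 genes lay at 0.10, −0.01 and −0.16 (log2) in GC0643 overexpression and at −0.04, −0.11 and 0.22 in vector control, and GFPT2, an enzyme of hexosamine synthesis, ran from −0.79 in GC0643 overexpression replicate 3 to 1.02 in vector control replicate 3.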

How the data were processed

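Total RNA of 6 HGC-27 libraries, made with the NEBNext Ultra kit, was sequenced by the authors. Per the labels, reads were trimmed with Trimmomatic 0.32, aligned to GRCh38 with HISAT2 2.1.0 and counted with featureCounts 2.0.0. The deposited values are raw counts per Ensembl gene. For its tumour RNA-seq the paper describes counting uniquely mapped reads, with a read that overlaps several genes counted for each. Whether this held for the cell line libraries, and their strand setting, is not given in the sources used here. Of 58825 genes, 58472 were matched to GENCODE version 44 of GRCh38 for names, positions, canonical transcript length and GC content. Genes kept by filterByExpr were scaled by TMM and fitted with edgeR 4.0.16 in R 4.3.3 (quasi-likelihood, group as the only term), with Benjamini-Hochberg adjustment over 19528 genes. The biological coefficient of variation was 14.8%. CPM use TMM-scaled totals. Log2 fold changes give GC0643 overexpression over vector control. The loess corrections used a span of 0.3 and a prior count of 1. DESeq2 1.42.0, limma 3.58.1 and the settings named in the closing section were alternatives. Figures were drawn with matplotlib 3.10.9, and the code was tested on simulated counts. The genes and lists were chosen with earlier results of these data known. Genes named are the 9, the 2 of each list with the smallest p, PSMB8 and PSMB9, and the 5 with the most similar profile. Others were named after their values were seen.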

Additional observations from a re-analysis of the deposited data

How the results depend on the processing

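Genes past the adjusted p numbered 0 by the quasi-likelihood test, 16 by the likelihood ratio test, 11 by DESeq2, 1 with DESeq2's size factors, 224 with no filter on low counts, 24 with a replicate block and 2 with the block and GC correction. Leaving out 1 library, there were 0 to 3813, most of them with vector control replicate 2 left out. The 1 of the 9 genes higher at the unadjusted p, B2M, fell to 0 after GC correction, with the block and GC correction, and without vector control replicate 2 with GC correction. Leaving out 1 library, this count ranged from 0 to 1, the count of lower genes from 0 to 4 and that past a fold change of 1.5 from 0 to 1. Lower genes numbered 1, which was NLRC5, by DESeq2, with DESeq2's size factors, among protein-coding genes only and after a correction for transcript length. In these fits 7.19%, 7.4%, 7.69% and 8.62% of all genes tested were lower at the unadjusted p. Of the list genes, 14 were higher, against 3 after GC correction, 2 with the block and GC correction, 6 after length correction, 9 without vector control replicate 2 with GC correction, and 5 to 19 leaving out 1 library. The share of all genes that was higher moved too, from 13.1% to 2.87%, 2.02%, 8.02% and 6.82% in the same order. Leaving out 1 library, this share ranged from 4.14% to 22.8%. None of the list genes was lower, against 3 by DESeq2, 2 with its size factors, 1 with no filter, 1 among protein-coding genes, 1 after GC correction, 1 with the block and GC correction, 2 after length correction, 2 without vector control replicate 2 with GC correction, and 0 to 7 leaving out 1 library. Among all genes 5.26% were lower in the main fit, 3.74% with no filter, 3.24% after GC correction and 2% with block and GC correction. The share was 5.31% without vector control replicate 2 with GC correction, and 1.84% to 14.2% leaving out 1 library. The cause was not tested.

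Among the named genes, the log2 fold changes that changed sign were those of HLA-B (0.13), HLA-C (0.18), FCGRT (0.078) and HLA-L (0.058) after GC correction, and the log2 difference of TAP1 over TAP2 (0.10). With the replicate block and GC correction they were 0.12 for HLA-B, 0.17 for HLA-C, 0.090 for FCGRT and 0.060 for HLA-L. HLA-C was at 0.0071 after length correction. Without vector control replicate 2 and with GC correction, HLA-B was at 0.036 and HLA-C at 0.081. Leaving out 1 library, the log2 fold change of HLA-B ranged from −0.30 to 0.17, HLA-C from −0.24 to 0.22, HLA-F from −0.089 to 0.73 and FCGRT from −0.50 to 0.29, and the log2 difference of TAP1 over TAP2 from −0.24 to 0.074 and of HLA-B over HLA-C from −0.071 to 0.0061. Over all settings, the 9 genes kept direction and side of the unadjusted p in 141 of their fits and changed sign in 16. Same-numbered libraries did not deviate together (correlations of −0.21, −0.03 and −0.31), against −0.17 to 0.31 for unlike numbers. The deviations were taken within groups of 3, so these correlations are tied to each other and cannot exclude a pairing. The replicate block left the call of B2M in place (log2 fold change 0.40, unadjusted p = 0.023 from edgeR).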

Other observations

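The class I pseudogene HLA-V, on chromosome 6, did not pass the filter and was chosen for mention after its values were seen. Its counts were 522, 237 and 1 with GC0643 overexpression and 0, 2 and 3 with vector control, so that GC0643 overexpression replicate 3 lay with the vector control libraries. HLA-K had 236, 130 and 139 counts with GC0643 overexpression and 195, 171 and 24 with vector control, and HLA-J 204, 223 and 95 against 179, 173 and 102. HLA-H had a log2 fold change of 0.34 after GC correction (unadjusted p = 0.0086 from edgeR). The paper describes counting uniquely mapped reads for its tumour RNA-seq. The part of reads shared between class I genes and pseudogenes in these values was not tested.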
